A study of Mus musculus with 4 samples.

Results

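The transcripts of 9 transcription factor genes were followed in cultured mouse T-cell progenitors. They were 6 genes of the Ets family (Ets1, Ets2, Fli1, Erg, Elf1 and Etv6) and 3 of the Ikaros family (Ikzf1, Ikzf2 and Ikzf3), taken by gene symbol from the 31053 genes counted, without regard to their levels. Each symbol matched 1 row in both count matrices. All 9 were counted in experiment 2 in every culture, and in experiment 1 all but Ikzf3, which had 0 unique molecular identifiers (UMIs, the barcodes that mark single captured transcripts) in 1 culture.

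The cells came from bone marrow progenitors that carried a Bcl2 transgene, which was shared by every culture, controls included. They were grown on OP9-Dll1, a stromal cell line that presents the Notch ligand Dll1, with IL-7 and Flt3-ligand at 10 ng/ml each. One arm of the design used B6.Bcl2 transgenic mice of 8 to 10 weeks, with MSCV-Runx1-mCherry against MSCV-empty-mCherry and harvests at days 4 and 6. The other arm used B6.Cas9;Bcl2 transgenic mice, whose age the labels do not give. It delivered the guide vectors E42-gRunx1-humanNGFR and E42-gRunx3-mTurquoise, with 3 guide pairs for each gene, or E42-gControl vectors whose guides aim at luciferase, and was harvested at days 5 and 8. All vectors were given on day 2, and the sorts kept live lineage-negative CD45+ cells with the vector reporters. Experiment 1 covered days 4 to 5 and experiment 2 days 4 to 8, each as 1 pooled mRNA library of 8 cultures marked with antibody hashtags. The labels tie no hashtag to a vector, a genotype or a day. The 8 hashtags of each experiment were therefore described as cultures of unknown condition, with no comparison of conditions and no test between them.

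After the cell filters, 8797 cells of experiment 1 and 8335 cells of experiment 2 had 1 clear hashtag, with 691 to 1312 cells per hashtag. The summed depth per hashtag was 14502385 to 38067298 UMIs in experiment 1 and 22272716 to 42684236 UMIs in experiment 2. The same barcode sequence occurred in both experiments for 39 cells. The labels call the cells Kit-high progenitors, and Kit, the stem cell factor receptor, was counted in every hashtag, at 54.3 to 89.0 UMIs of the gene per 1e+06 UMIs counted (CPM) in experiment 1 and 26.4 to 56.5 CPM in experiment 2. Cells with transcripts of B-lineage, natural killer (NK), stromal and myeloid marker genes were present beside them, despite the lineage-negative sort, and are described separately.

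Ets factors share a winged helix DNA-binding domain that recognizes a GGAA core. Ets1 is known for its part in T-cell, NK-cell and B-cell development, Fli1 and Erg for the maintenance of stem cells and megakaryocytes, Etv6 as a repressor needed by marrow stem cells, and Elf1 as a regulator of lymphoid and endothelial genes. Ikaros factors bind DNA through zinc fingers and act largely with the NuRD chromatin remodelling complex: Ikzf1 (Ikaros) is needed for lymphoid development, Ikzf2 (Helios) is known from regulatory T cells and early progenitors, and Ikzf3 (Aiolos) from B cells and maturing lymphocytes. Early T-cell progenitors are ordered by surface and nuclear markers: Kit is high at first, Il2ra (CD25) is gained next, and Bcl11b marks T-lineage commitment.

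The genes lie on 6 chromosomes of the mouse genome (GRCm38.p6, RefSeq annotation). Fli1 (chr9:32422204-32543432) and Ets1 (chr9:32636241-32757820) are neighbours, with 92808 bases and no protein-coding gene between them. Erg (chr16:95359169-95586600) and Ets2 (chr16:95702407-95721049) form the other neighbouring pair, with 115806 bases and no protein-coding gene between them. Elf1 (chr14:79481174-79582491), Etv6 (chr6:134035700-134270158), Ikzf1 (chr11:11684962-11772930), Ikzf3 (chr11:98464610-98546031) and Ikzf2 (chr1:69531207-69687351) lie apart from them. RefSeq promoter windows were at hand for 5 of the 9 genes. Of these, Etv6, Erg and Ets2 are shown, since Etv6 and Erg were lowest in NK-marker cells and Ets2 was highest in stromal-marker cells. The sequences run 5′ to 3′ on the strand of the gene and end at the annotated gene start, at chr6:134035450-134035699 (+ strand), chr16:95586601-95586843 (- strand) and chr16:95702157-95702406 (+ strand). Capitals mark the Ikaros motif TGGGAA, searched on both strands:
Etv6: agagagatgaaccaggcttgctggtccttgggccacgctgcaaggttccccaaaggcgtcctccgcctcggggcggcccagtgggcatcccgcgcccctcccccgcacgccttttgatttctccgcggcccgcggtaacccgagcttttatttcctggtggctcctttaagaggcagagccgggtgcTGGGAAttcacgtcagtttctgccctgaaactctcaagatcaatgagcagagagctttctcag
Erg: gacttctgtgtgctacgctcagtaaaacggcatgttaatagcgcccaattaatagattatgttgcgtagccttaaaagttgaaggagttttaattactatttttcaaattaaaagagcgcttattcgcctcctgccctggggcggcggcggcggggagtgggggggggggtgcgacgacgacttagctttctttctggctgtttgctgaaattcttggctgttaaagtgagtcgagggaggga
Ets2: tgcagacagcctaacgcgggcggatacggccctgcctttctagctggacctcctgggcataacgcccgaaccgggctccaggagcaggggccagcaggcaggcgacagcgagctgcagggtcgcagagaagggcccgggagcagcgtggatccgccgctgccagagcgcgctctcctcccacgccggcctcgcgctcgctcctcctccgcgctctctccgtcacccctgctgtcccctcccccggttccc
In the 250 bases before each start site, the Ets motif (CCGGAA or GGAAGT) and the Runx motif (TGTGGT or TGCGGT) had 0 matches on either strand in the 9 windows of the 5 genes. Among all 32851 mouse promoter windows of that length, 27.1% held the Ets letters, 18.6% the Runx letters and 21.6% the Ikaros letters. TGGGAA occurred once in the Etv6 window and once in another Erg window, which lies inside the gene and is not printed. A match describes letters in these windows only.

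Ets1 varied most between cultures among the 8 members that could be given a ratio. From hashtag 1 to hashtag 8 of experiment 1 its level was 5.99, 5.08, 8.12, 8.64, 18.7, 13.2, 23.8 and 14.8 CPM. Hashtags 5 to 8 were all above hashtags 1 to 4. In experiment 2 the corresponding Ets1 levels were 5.07, 5.82, 10.0, 26.3, 11.0, 10.4, 33.1 and 23.8 CPM, with hashtags 4, 7 and 8 above the others. The highest-to-lowest ratio was 4.70 (exact 95% interval 3.97 to 5.58) in experiment 1 and 6.52 (5.53 to 7.73) in experiment 2. All intervals cover counting error only and not the variation between cultures. A higher level of a hashtag may come from more cells with the transcript or from more transcript per cell, which sums over cells cannot tell apart. The later markers went with Ets1 in part. In experiment 1, hashtags 5 to 8 had the highest Il2ra levels, at 417 to 495 CPM against 162 to 207 CPM, but Bcl11b was highest in hashtags 3 and 4, at 34.69 and 34.99 CPM. In experiment 2, hashtags 4, 7 and 8 had the highest Bcl11b levels, at 128, 63.4 and 22.9 CPM. Il2ra there was highest in hashtags 7 and 8, at 341 and 251 CPM, but hashtag 4, at 126 CPM, was below hashtags 3 and 5, at 176 and 129 CPM. Levels within cells gated on these markers are given with the stage gates.

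The share of cells with an Ets1 UMI was highest in hashtag 7 of each experiment, as was the level. With each cell thinned to 10000 UMIs, Ets1 was counted in 4.77 to 17.6% of cells over the hashtags of experiment 1 and in 4.70 to 26.3% over those of experiment 2. Fli1, its genomic neighbour, was counted in 32.1 to 39.8% and 19.5 to 27.0% of cells. Fli1 levels lay between 41.0 and 52.2 CPM in experiment 1, and between 22.4 and 32.7 CPM in experiment 2, with ratios of 1.27 (1.18 to 1.37) and 1.46 (1.32 to 1.63). No hashtag of experiment 1 lay beyond counting error from the next one in order for Fli1, against 4 of 7 such neighbours for Ets1. Hashtag 7 was the highest of its experiment for both genes in both experiments.

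The Erg and Ets2 pair was counted at low levels. Erg was lowest at 4.92 CPM (hashtag 3) and highest at 9.37 CPM (hashtag 7) in experiment 1. In experiment 2 its extremes were 3.14 CPM (hashtag 2) and 6.59 CPM (hashtag 7). Its ratios were 1.91 (1.53 to 2.37) and 2.10 (1.61 to 2.75), and no hashtag differed from its nearest neighbour in the order beyond counting error. Without hashtag 2 of experiment 2 the Erg ratio was 1.69. Ets2, a factor activated through Ras signalling, ranged from 4.12 (hashtag 2) to 6.94 CPM (hashtag 3) in experiment 1, a ratio of 1.68 (1.36 to 2.09). Thinned to 5000 UMIs per cell, the ratio was 3.07. In experiment 2 it ranged from 3.24 (hashtag 1) to 5.59 CPM (hashtag 4), a ratio of 1.73 (1.34 to 2.23). The hashtags highest in Ets2 were among the lowest in Erg: in experiment 1 these were hashtags 3 and 4, and in experiment 2 hashtags 4 and 2.

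Elf1 and Etv6 shared their highest and lowest hashtags in experiment 1 and their lowest in experiment 2. In experiment 1, Elf1 read 132, 129, 119, 117, 139, 135, 171 and 160.0 CPM from hashtag 1 to hashtag 8. Etv6 there read 71.1, 72.6, 56.2, 56.8, 66.3, 64.9, 89.5 and 86.5 CPM. Both were highest in hashtags 7 and 8 and lowest in hashtags 3 and 4. The ratio was 1.46 (1.40 to 1.53) for Elf1 and 1.59 (1.49 to 1.70) for Etv6. In experiment 2, Elf1 read 103, 86.2, 95.9, 89.9, 92.5, 99.6, 102 and 112 CPM, and Etv6 read 43.9, 35.1, 41.0, 32.7, 41.8, 50.4, 39.8 and 44.8 CPM. Hashtags 2 and 4 were the lowest for both, while hashtag 8 was the highest for Elf1 and hashtag 6 for Etv6, with ratios of 1.30 (1.23 to 1.38) and 1.54 (1.41 to 1.68). Runx1 and Runx3, both perturbed in the design, were at their lowest in the same hashtags. In hashtags 3 and 4 of experiment 1, Runx1 was at 38.2 and 39.3 CPM and Runx3 at 115 and 118 CPM. In hashtags 2 and 4 of experiment 2, Runx1 was at 33.7 and 39.5 CPM and Runx3 at 95.3 and 74.7 CPM. Runx1 was at its highest, at 241 and 210.0 CPM, in hashtags 7 and 8 of experiment 1. These counts hold transcripts of the mouse Runx1 gene and of any Runx1 vector alike, and no condition was read from them.

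Ikzf1 had another order. Its level in experiment 1 was 85.8, 83.9, 116, 127, 95.2, 93.1, 110.3 and 88.2 CPM, highest in hashtags 4 and 3. In experiment 2 it was 61.6, 86.8, 58.2, 100.0, 58.9, 61.5, 66.8 and 80.8 CPM, highest in hashtags 4 and 2. The ratios were 1.51 (1.44 to 1.58) and 1.72 (1.63 to 1.82), each hashtag sum holding at least 1279 UMIs. The hashtags highest in Ikzf1 had the highest levels of Tcf7 and Gata3, early T-lineage factors: 258 and 273 CPM of Tcf7 in hashtags 3 and 4 of experiment 1, and 179 and 206 CPM in hashtags 2 and 4 of experiment 2. They were also the hashtags lowest in Elf1 and, in both experiments, in Etv6.

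Ikzf2 varied most among the Ikaros genes that could be given a ratio. In experiment 1 it read 58.8, 54.5, 77.1, 79.9, 73.9, 75.9, 110.3 and 95.3 CPM, highest in hashtags 7 and 8. In experiment 2 it read 26.9, 47.5, 51.9, 66.3, 38.8, 30.4, 48.4 and 47.0 CPM, highest in hashtag 4. The ratios were 2.03 (1.91 to 2.15) and 2.46 (2.27 to 2.67). Without hashtag 2 or hashtag 7 of experiment 1 the Ikzf2 ratio was 1.88 or 1.75, and without hashtag 4 of experiment 2 it was 1.93. Ikzf3 was near the limit of detection in most cultures, with 0 to 11 UMIs per hashtag in experiment 1 and 3 to 153 in experiment 2. Its highest level was 5.85 CPM in hashtag 4 of experiment 2, against 0.106 to 1.76 CPM in the other 7 hashtags.

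Read against all genes, the variation of the group was mixed. A ratio of at least 2 was found for 2 of 8 members that passed the minimum level in experiment 1 (Ets1 and Ikzf2) and for 3 of 7 in experiment 2 (Ets1, Ikzf2 and Erg). Among all genes that passed, by a mean over hashtags no lower than 5 CPM with 10 or more UMIs in each hashtag, 10.7% reached it in experiment 1 and 17.2% in experiment 2. Ikzf3 did not pass in either experiment, nor Ets2 in experiment 2. Low levels widen the ratio through counting error, and with a mean of at least 50 CPM the shares were 5.54% and 9.53%. The median ratio over the members that passed was 1.64 and 1.72, against 1.31 and 1.37 over all genes that passed.

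**Figure D1:**
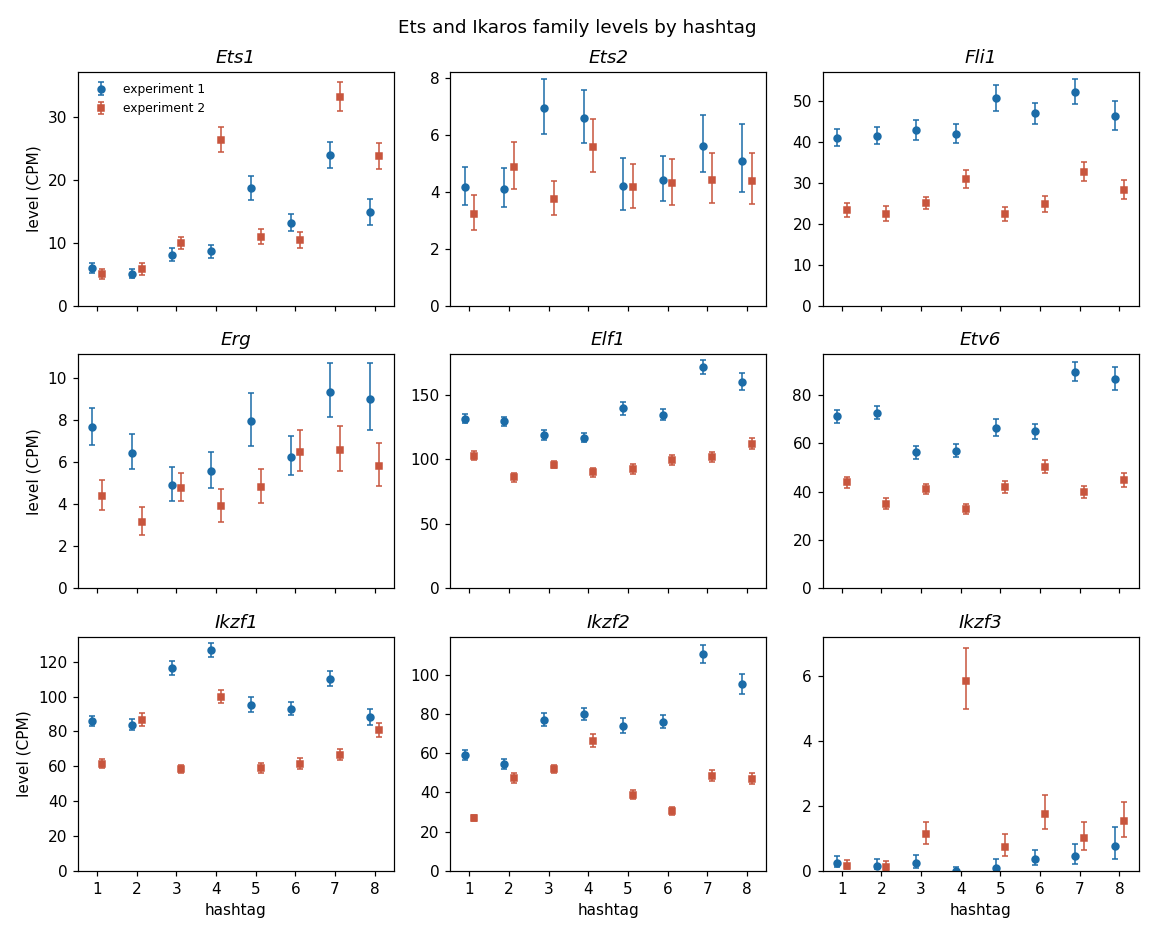
Level of each gene in CPM (vertical axis, linear) in hashtags 1 to 8 (horizontal axis) of experiment 1 (circles) and experiment 2 (squares), with exact 95% Poisson intervals as bars. Ets1 reached 33.1 CPM in hashtag 7 of experiment 2 against 5.07 CPM in hashtag 1, while Fli1 stayed between 22.4 and 32.7 CPM in that experiment.

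Other Ets family genes that passed the minimum level varied about as much as all genes. Of 20 further Ets family genes, 8 passed the minimum level in each experiment, with a ratio of at least 2 for 0 in experiment 1 and for 2 in experiment 2. These 2 were Spi1 (PU.1, a myeloid and early progenitor factor), with a ratio of 3.60, and Etv3, with 2.01. Among all genes that passed, 10.7% and 17.2% reached a ratio of 2. The median ratio of the 8 genes was 1.29 and 1.41, against 1.31 and 1.37 over all genes that passed. Genes below the minimum were given no ratio and are not covered by these counts. Gabpa, a widely expressed Ets factor, was the steadiest, with ratios of 1.11 and 1.15. Elf5, Etv2 and Fev had 0 UMIs in both experiments, and Ehf had 0 in experiment 1 and 19 in experiment 2. Of the other Ikaros genes, Ikzf5 had ratios of 1.42 and 1.43, while Ikzf4 was below the minimum, at 0.847 to 6.25 CPM over both experiments. Of 16 genes for NuRD and SWI/SNF subunits that work with Ikaros proteins, all 16 passed the minimum. Their median ratio was 1.21 and 1.26, and 1 gene in each experiment reached 2: Chd3, a NuRD helicase, with 2.07 in experiment 1, and Mta3, a NuRD subunit, with 2.78 in experiment 2. The lowest ratios were 1.13 for Smarcc1 and 1.05 for Mbd3.

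The members were next compared along the order of T-cell development. Cells thinned to 10000 UMIs were put into gates named by their genes: Kit-only (Kit without Il2ra or Bcl11b), Kit and Il2ra (without Bcl11b), and Il2ra and Bcl11b. At least 2 Il2ra UMIs were asked for, and at least 1 UMI of Kit. Cells of the other-lineage marker gates were left out. The gates held 1289, 1311 and 607 cells in experiment 1 and 776, 394 and 693 cells in experiment 2. A cell at 0 UMIs of a marker after thinning may still express it. Hashtags with at least 50 cells in both gates were compared within themselves, which leaves 8 or 5 hashtags in experiment 1 and only 1 or 2 in experiment 2.

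Ets1 was higher at each later gate. In Kit-only cells of experiment 1 its level from hashtag 1 to hashtag 8 was 2.08, 2.08, 3.58, 3.60, 1.70, 1.73, 10.3 and 3.16 CPM. In Kit and Il2ra cells of the same hashtags it was 7.17, 8.73, 9.81, 9.06, 14.1, 11.4, 33.4 and 22.7 CPM, higher in 8 of 8 hashtags, each beyond counting error. The median fold was 3.83, with a range of 2.52 to 8.29. In Il2ra and Bcl11b cells of hashtags 3 to 7 it was 24.9, 33.9, 55.6, 45.5 and 62.9 CPM, higher than in Kit and Il2ra cells in 5 of 5 hashtags, with a median fold of 3.75 (1.89 to 4.01). Between the outer gates the median fold was 9.43 (6.13 to 32.6), with only 72 UMIs in the Kit-only cells of these 5 hashtags. It was 17.9 with gates of at least 25 cells, a choice made after the data were seen, which adds hashtag 1. Without hashtag 3 or hashtag 7 it was also 17.9, and without hashtag 4 it was 16.6. Ets1 was the sole member higher by a median of at least 1.5-fold and higher in every hashtag in any of the 3 comparisons of experiment 1, and none was lower by that measure. Of all genes, 2.32% were higher for the earlier step, 1.74% for the later step and 4.57% for the outer gates, and 1.84%, 1.18% and 3.99% were lower.

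In experiment 2 the same order was seen in fewer hashtags. Ets1 read 2.19 CPM in Kit-only cells, 6.58 CPM in Kit and Il2ra cells and 37.4 CPM in Il2ra and Bcl11b cells of hashtag 3. In hashtag 7 it was 27.3 CPM in Kit and Il2ra cells and 50.4 CPM in Il2ra and Bcl11b cells, and in hashtag 8 it was 6.74 CPM in Kit-only and 64.2 CPM in Il2ra and Bcl11b cells. The median fold between the outer gates was 13.3 over hashtags 3 and 8, and 6.64 with cells of the other-lineage gates kept. In hashtag 3 the earlier step was 3.01-fold, from 5 UMIs in Kit-only cells, and was 1.73-fold with those cells kept and 1.94-fold with HTODemux. With gates of at least 25 cells, Ets1 was higher in 8 of 8 hashtags at the earlier step (median 3.35, 1.23 to 8.47) and in 6 of 6 at the later step (3.85, 1.85 to 8.51). By the same measure 6.17%, 5.28% and 8.73% of all genes in experiment 2 were higher, and 7.56%, 2.87% and 7.64% were lower. With so few hashtags this measure was easier to meet than in experiment 1.

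The share of cells followed the level. Over all hashtags, Ets1 was counted in 3.26% of Kit-only cells (95% Clopper-Pearson interval 2.36 to 4.38%), 13.0% of Kit and Il2ra cells (11.2 to 14.9%) and 34.1% of Il2ra and Bcl11b cells (30.3 to 38.0%) in experiment 1. The shares were 3.99% (2.73 to 5.62%), 14.5% (11.1 to 18.3%) and 35.6% (32.1 to 39.3%) in experiment 2. Granule protease cells, described below, had it in 1.01% (0.122 to 3.58%) and 1.39% (0.287 to 4.01%) of cells at the same thinned depth. No profile of free RNA was made, and these cells may hold Ets1 of their own. In Kit and Il2ra cells of experiment 1, Fli1 was counted in 41.2% of the 170 cells with Ets1 and in 37.2% of the 1141 without it. In those of experiment 2 it was counted in 36.8% of the 57 cells with Ets1 and in 24.3% of the 337 without it. The Ets1 share of Kit-only cells lay within the interval of granule protease cells in both experiments, at 3.99% against an upper bound of 4.01% in experiment 2. Over all hashtags of experiment 1, the Ets1 level was 3.16 CPM (2.59 to 3.82) in Kit-only cells, above the 1.22 CPM (0.559 to 2.32) of granule protease cells. In experiment 2 the levels were 3.03 CPM (2.36 to 3.85) and 2.02 CPM (1.20 to 3.20). Hashtags 1 and 2 gave 47 and 68 of the 199 granule protease cells of experiment 1. Kit-only cells of those hashtags were at 2.08 CPM (1.21 to 3.32) and 2.08 CPM (1.16 to 3.43), which overlaps the granule protease interval. These 2 gates were not compared within a hashtag. Median depths before thinning were 25588, 25046 and 22085 UMIs in the 3 gates of experiment 1 and 27437, 27780 and 20923 UMIs in experiment 2.

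Cultures still differed in Ets1 within a gate. Among Kit and Il2ra cells of experiment 1, hashtag 7 had 4.65 times the level of hashtag 1 (3.22 to 6.87), the highest and lowest there. Over all cells the ratio of 4.70 was that of hashtag 7 to hashtag 2, another pair. Among Il2ra and Bcl11b cells the ratio of hashtag 7 to hashtag 3 was 2.52 (1.83 to 3.50). In experiment 2 hashtag 7 had 4.15 times (2.44 to 7.41) the level of hashtag 3 among Kit and Il2ra cells. Among gates of at least 50 cells, hashtag 7 of experiment 1 was the highest in each of the 3 gates for Ets1, Elf1 and Etv6, and hashtags 3 and 4 were the highest in each for Ikzf1. The Ets1 level of Il2ra and Bcl11b cells was 96.6 CPM (70.7 to 129) in hashtag 8, which had only 23 such cells. Among gates of at least 50 cells, the Etv6 level was lowest in hashtag 3 in all 3 gates of experiment 1, at 59.8, 53.3 and 50.7 CPM against 105, 90.3 and 73.0 CPM in hashtag 7. The highest-to-lowest Ikzf1 ratio within a gate was 1.42, 1.42 and 1.47 in experiment 1, against 1.51 over all cells. The lowest hashtag was not the same in each gate.

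Etv6 and Elf1 ran the other way by a small amount. Etv6 in experiment 1 was 67.3, 81.3 and 66.4 CPM in Kit-only cells of hashtags 4, 5 and 6 and 54.6, 54.1 and 58.1 CPM in their Il2ra and Bcl11b cells. It was lower between the outer gates in 5 of 5 hashtags, 3 of them beyond counting error, with a median fold of 0.812 (0.665 to 0.875). In experiment 2 it was lower in 2 of 2 hashtags (median 0.648), and in 6 of 6 with gates of at least 25 cells (0.703). Elf1 was also lower in 5 of 5 hashtags of experiment 1, with a median fold of 0.864 (0.768 to 0.895), and in 2 of 2 hashtags of experiment 2 (0.846). With gates of at least 25 cells the Elf1 median of experiment 2 was 0.973, lower in 3 of 6 hashtags.

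Changes of the other members between gates were small or mixed. Ikzf1 was higher in Kit and Il2ra than in Kit-only cells in 8 of 8 hashtags of experiment 1, but only by a median of 1.10-fold and beyond counting error in 2. Between the outer gates its median was 1.24-fold in experiment 1 (4 of 5 higher) and 0.908-fold in experiment 2 (1 of 2 higher). Fli1 had medians of 1.23 and 1.21, higher in 4 of 5 and 2 of 2 hashtags. Ikzf2 had medians of 0.882 (1 of 5 higher) and 1.23 (2 of 2 higher). Erg had medians of 1.01 and 0.895 and Ets2 of 1.61 and 1.97. Kit-only cells held 126 and 81 UMIs of Erg and Ets2 in experiment 1 and 40 and 13 in experiment 2. Between the outer gates no hashtag of either gene was beyond counting error. At the later step Ets2 had medians of 1.05 (0.390 to 2.26, 3 of 5 higher) and 2.31 (2.26 to 2.35, 2 of 2 higher). There 1 hashtag of each experiment was beyond counting error. The second median rests on 14 UMIs in Kit and Il2ra cells, and was 0.783 with gates of at least 25 cells. Ikzf3 had at most 14 UMIs in any of these gates and was given no fold.

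**Figure D2:**
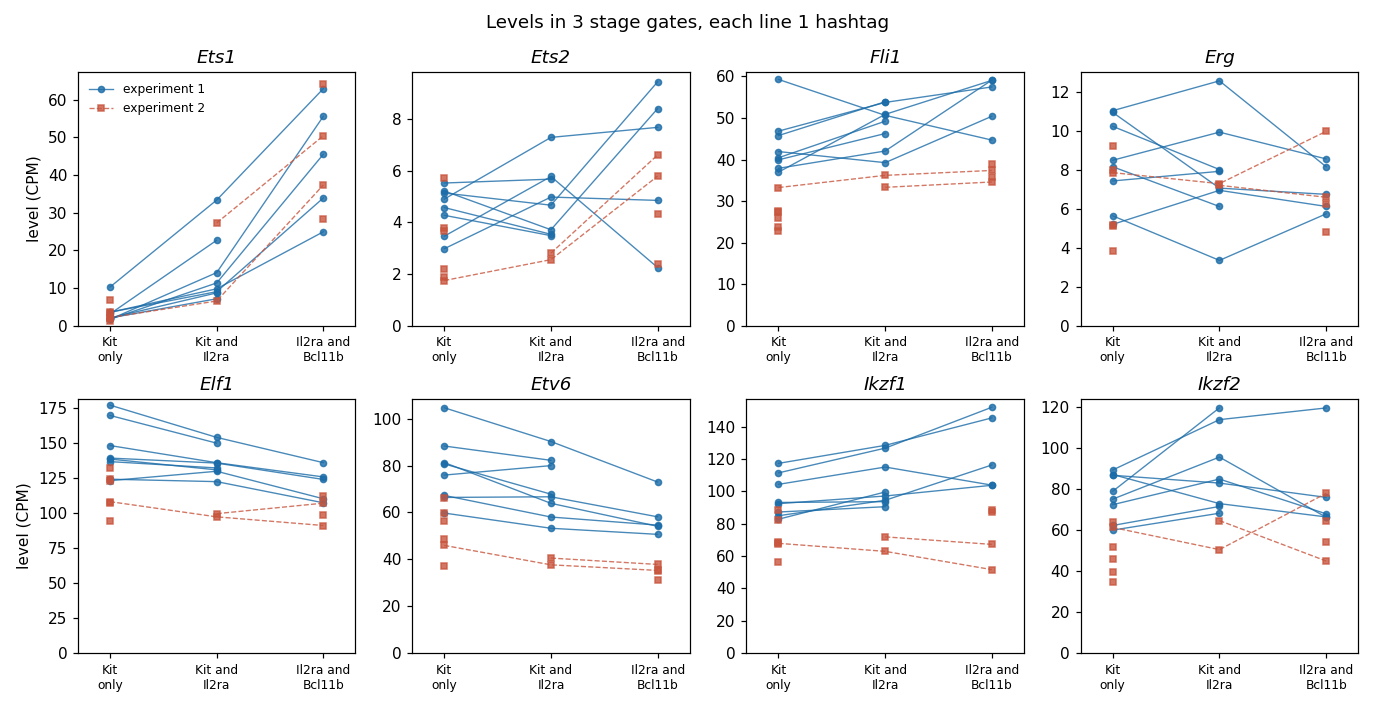
Level in CPM (vertical axis) of 8 genes in Kit-only, Kit and Il2ra, and Il2ra and Bcl11b cells, with lines joining gates next to each other in the same hashtag (circles and solid lines experiment 1, squares and dashed lines experiment 2, gates with at least 50 cells). Every Ets1 line goes up, up to 62.9 CPM in hashtag 7 of experiment 1, and the Etv6 lines of hashtags 3, 4, 5 and 7 of experiment 1 descend at both steps.

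Cells with Flt3 and without Il2ra or Bcl11b, an early multipotent pattern, had lower Ikzf2 levels than Kit-only cells. These 2 gates may share cells. Over all hashtags Ikzf2 was at 35.6 CPM in the 173 Flt3 cells of experiment 1 and at 18.2 CPM in the 188 of experiment 2, against 73.5 and 52.3 CPM in Kit-only cells. Ikzf2 was counted in 30.6% (23.9 to 38.1%) and 11.7% (7.48 to 17.2%) of Flt3 cells, against 46.5% (43.8 to 49.3%) and 35.3% (31.9 to 38.8%) of Kit-only cells. In the same cells Ikzf1 was at 91.3 and 73.1 CPM, against 96.7 and 75.1 CPM in Kit-only cells. Ets1 was at 1.37 and 1.87 CPM in Flt3 cells, from 7 and 11 UMIs, against 3.16 and 3.03 CPM. Levels over all hashtags pool hashtags that hold between 2 and 66 Flt3 cells each. Hashtag 7 gave 6 of the 7 Ets1 UMIs of experiment 1, at 7.50 CPM (2.75 to 16.3) against 10.3 CPM (6.71 to 15.1) in its Kit-only cells. In hashtags 1, 6 and 8 of experiment 2, Ets1 was at 0.922, 2.98 and 3.35 CPM, against 1.19, 3.30 and 6.74 CPM. The intervals overlapped in each, so a lower Ets1 level in Flt3 cells was not shown within a hashtag.

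Cells with marker genes of other lineages were compared with the 6757 and 5031 cells of experiments 1 and 2 in none of these gates, over all hashtags. A cell entered a gate with UMIs of at least 3 genes of its list and at least 10 UMIs in all at the thinned depth, and cells that met several lists (76 and 283) were left out. NK-marker cells (46 in experiment 1 and 151 in experiment 2) had more Ets1, Ikzf1 and Ikzf2 and less Etv6 and Erg. Ets1 was at 67.8 and 85.6 CPM there against 11.7 and 15.4 CPM, a fold of 5.78 (4.29 to 7.63) and 5.55 (4.88 to 6.29). Ikzf1 was 2.97-fold (2.59 to 3.39) and 1.92-fold (1.74 to 2.11) higher, and Ikzf2 4.28-fold (3.75 to 4.87) and 2.05-fold (1.83 to 2.29). Of all genes, 20.7% and 14.7% were at least 1.5-fold higher in this gate, and 16.4% and 14.4% lower, so single genes past that fold were common.

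Etv6 was at 15.9 and 7.44 CPM in NK-marker cells, against 69.3 and 42.5 CPM in cells of no gate. The fold was 0.230 (0.119 to 0.402) in experiment 1 and 0.175 (0.112 to 0.261) in experiment 2. It was counted in 17.4% (7.82 to 31.4%) and 7.95% (4.17 to 13.5%) of these cells, against 48.3% and 34.4%. Erg, whose promoter is printed beside that of Etv6, had 0 UMIs in the NK-marker cells of both experiments. Against a limit of 3 counts this was at least 1.86-fold and 6.45-fold lower than the 7.42 and 6.00 CPM of cells in no gate. A count of 0 of 151 cells allows up to 2.41% of cells with an Erg UMI by the exact interval, which limits detection and not expression. Of cells in no gate, 5.84% had an Erg UMI. Elf1 in contrast was at 149 and 95.8 CPM against 135 and 105 CPM, a fold whose interval held 1 in both experiments. Fli1 was 1.49-fold (1.11 to 1.96) and 1.36-fold (1.13 to 1.63) higher. NK-marker cells were shallower, with median depths of 15472 and 19010 UMIs against 25390 and 27207, and the part of depth was not tested. The gate held 28 and 69 cells with 10 to 14 marker UMIs, and 55 and 102 cells had 7 or more without entering it.

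Hashtag 4 gave 65 of the 151 NK-marker cells of experiment 2. Within hashtags 3, 4 and 8, Etv6 was lower in NK-marker cells in 3 of 3 (0.165 to 0.175), Ets1 higher in 3 of 3 (2.57 to 5.37) and Ikzf1 higher in 3 of 3 (1.36 to 2.01). Ikzf2 was higher in 2 of 3 (0.630 to 2.80). Without hashtag 4 the Ikzf2 level of NK-marker cells was 139 CPM, against 99.9 CPM with it, and the Etv6 level was 8.47 against 7.44 CPM.

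Ikzf3 had its highest levels in lymphoid-marker cells. The 44 B-lineage-marker cells of experiment 2 had 30.7 CPM against 0.987 CPM in cells of no gate, a fold of 31.1 (21.1 to 44.9) from 37 UMIs, and of 74.5 without hashtag 4. It was counted in 29.5% of them (16.8 to 45.2%), against 0.696% of cells in no gate (0.485 to 0.966%). NK-marker cells of experiment 2 had 22.0 CPM, a fold of 22.3 (16.6 to 29.9), and 7.41 CPM with a fold of 16.3 without hashtag 4. Within hashtags 3, 4 and 8 the fold of NK-marker cells was smaller, at 3.79 to 12.9 with a median of 6.54, higher in 3 of 3. The folds over all hashtags thus also hold differences between cultures. NK-marker cells of experiment 1 had 3 UMIs, with a ratio of 33.8 (6.45 to 113) over all hashtags. In hashtag 4, 57 of the 153 Ikzf3 UMIs (37.3%) lay in NK-marker cells and 83 in cells of no gate, over 76 cells in all. In hashtags 7 and 8, 13 of 24 and 17 of 34 UMIs lay in B-lineage-marker cells. In hashtags 3 and 6, 29 of 48 and 18 of 47 UMIs lay in cells of no gate.

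The other members in B-lineage-marker cells were a mix. Ets1 was 3.55-fold (2.73 to 4.53) higher than in cells of no gate, while Ikzf2 was at 0.273-fold (0.156 to 0.443), Etv6 at 0.586-fold (0.395 to 0.838) and Ikzf1 at 0.671-fold (0.509 to 0.868). Of all genes, 9.39% were at least 1.5-fold higher and 14.8% lower in this gate. Experiment 1 had only 5 such cells, and hashtags 7 and 8 gave 15 cells each of the 44 in experiment 2. Those hashtags were among the highest in Ets1, at 33.1 and 23.8 CPM, and the folds were not compared within a hashtag. Ets1 was at 54.8 CPM in B-lineage-marker cells, against 50.4 and 64.2 CPM in Il2ra and Bcl11b cells of hashtags 7 and 8.

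Stromal-marker cells of experiment 2 (136 cells) had more Ets2. Its level was 23.2 CPM there against 3.55 CPM in cells of no gate, a fold of 6.54 (5.45 to 7.80), and within hashtags 1 and 2 it was 5.88-fold to 6.59-fold higher. Ets1 there was 1.19-fold (0.985 to 1.41) over all hashtags, but 2.02-fold to 7.01-fold higher within those 2 hashtags. Other members were lower: Erg at 0.234-fold (0.112 to 0.433), Ikzf1 at 0.346-fold (0.296 to 0.401), Fli1 at 0.441-fold (0.353 to 0.546) and Ikzf2 at 0.471-fold (0.401 to 0.550). Of all genes, 35.2% were at least 1.5-fold higher and 26.2% lower, so these cells differed widely. Their median depth was 51276.5 UMIs, against 27207 UMIs for cells in no gate, and they were sorted for CD45. Barcodes that held a stromal and a blood cell together were not told apart from stromal cells.

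Granule protease and MHC class II cells had less Ets1 than cells of no gate, which include the cells of the later stage gates. In granule protease cells (199 and 216) it was at 1.22 and 2.02 CPM over all hashtags, a fold of 0.104 (0.0477 to 0.199) and 0.131 (0.0776 to 0.208). Hashtags 1 and 2, which were low in Ets1, gave 47 and 68 of the 199 cells, and hashtag 1 gave 98 of the 216. Within hashtags 1 and 2 of experiment 1 the Ets1 fold was 0.192 to 0.220. Within hashtags 1, 2, 5 and 6 of experiment 2 it was 0.106 to 0.506, with a median of 0.280. Over all hashtags Ikzf2 was at 0.349-fold (0.301 to 0.403) and 0.289-fold (0.240 to 0.344) and Erg at 0.458-fold (0.295 to 0.679) and 0.375-fold (0.228 to 0.582). Of all genes, 11.2% and 11.5% were at least 1.5-fold lower there, and 6.8% and 7.62% higher. In cells with MHC class II genes (1114 and 1805) Ets1 was at 0.244-fold (0.193 to 0.305) and 0.182-fold (0.153 to 0.216), lower in 8 of 8 hashtags of each experiment, while Ikzf1 was at 99.1 and 71.6 CPM against 100.1 and 71.7 CPM in cells of no gate. Ets1 in MHC class II cells of experiment 1 was at 2.86 CPM (2.27 to 3.56), near the 3.16 CPM (2.59 to 3.82) of Kit-only cells. In experiment 2 it was at 2.82 CPM, also near the level given above for Kit-only cells. Of all genes, 1.32% and 2.48% were at least 1.5-fold lower in the MHC class II gate than in cells of no gate, and 2.12% and 5.34% higher. In the 59 neutrophil-marker cells of experiment 2, Ets1 was at 20.0 CPM, a fold of 1.29 (0.843 to 1.90). Ikzf2 in them was at 0.189-fold (0.0977 to 0.331) and Elf1 at 0.469-fold (0.361 to 0.599), where 41.6% of all genes were lower by that measure and 14.2% higher.

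**Figure D3:**
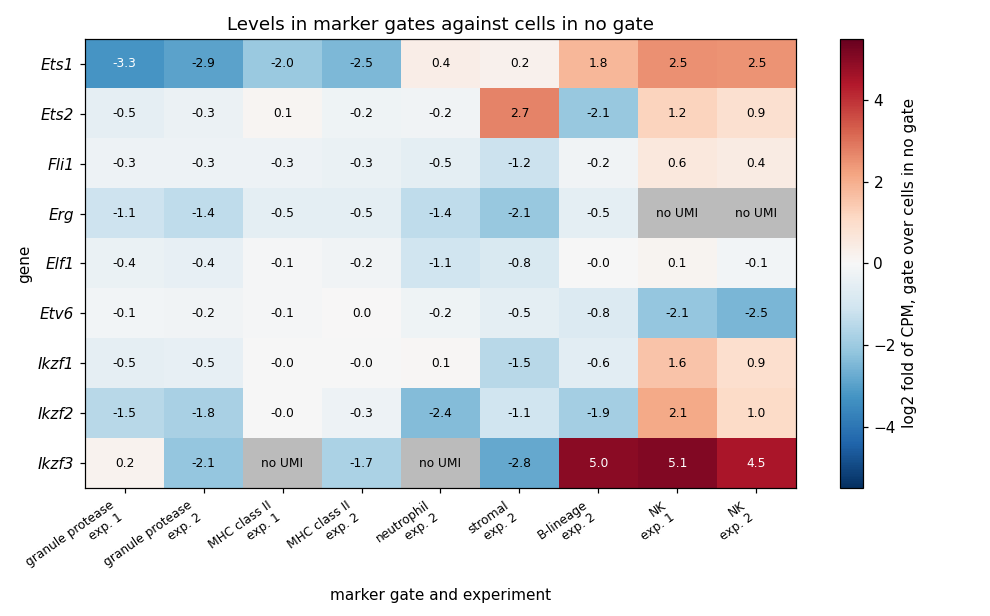
Colour and number give the log2 fold of CPM in each marker gate (columns, with the experiment) over cells in no gate, for each gene (rows). Grey cells mark 0 UMIs in the gate: Erg in NK-marker cells of both experiments and Ikzf3 in 2 myeloid gates. Ikzf3 is high in the B-lineage and NK gates, Etv6 is low in the NK gates and Ets2 is high in the stromal gate.

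Experiment 2 as a whole, which reached later days, had lower levels of most members than experiment 1. With 1 library per experiment, culture time, library and mix of cultures cannot be told apart. Fli1 was at 25.9 CPM against 44.6 CPM, a ratio of 0.581 (0.562 to 0.600). Ikzf2 had a ratio of 0.594 (0.580 to 0.609) and Etv6 of 0.597 (0.582 to 0.613). These 3 of the 8 members other than Ikzf3 were at least 1.5-fold lower and 0 of the 8 were that much higher. Among all genes 7.64% were lower and 3.25% higher. Ets2 is among the 8 though it was at 4.26 CPM in experiment 2, below the minimum of 5 CPM. Ikzf1, Erg, Elf1 and Ets2 had ratios of 0.705, 0.711, 0.723 and 0.832. The median ratio over all genes was also below 1, at 0.899, which lies within the interval of Ets2 (0.763 to 0.907). Ets1 was the one of the 8 with a ratio above 1, at 1.32 (1.25 to 1.39), but the medians over the 8 hashtags were 10.9 CPM in experiment 1 and 10.7 CPM in experiment 2. All hashtags of experiment 2 were below all of experiment 1 for Fli1, Elf1 and Etv6, as they were for 21% of all genes, while 2.83% of all genes had all hashtags above and no member did. Ikzf3, below the minimum, had 55 UMIs in experiment 1 and 335 in experiment 2, of which hashtag 4 gave 153.

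The lower levels were also seen within the Kit-only gate. Over all hashtags, Fli1 was at 42.03 CPM in Kit-only cells of experiment 1 and at 26.0 CPM in those of experiment 2. Etv6 there was at 75.7 and 50.4 CPM, and Ikzf2 at 73.5 and 52.3 CPM. Ets1 in this gate was nearly equal, at 3.16 and 3.03 CPM, and in Il2ra and Bcl11b cells it was at 45.2 and 46.5 CPM.

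**Figure D4:**
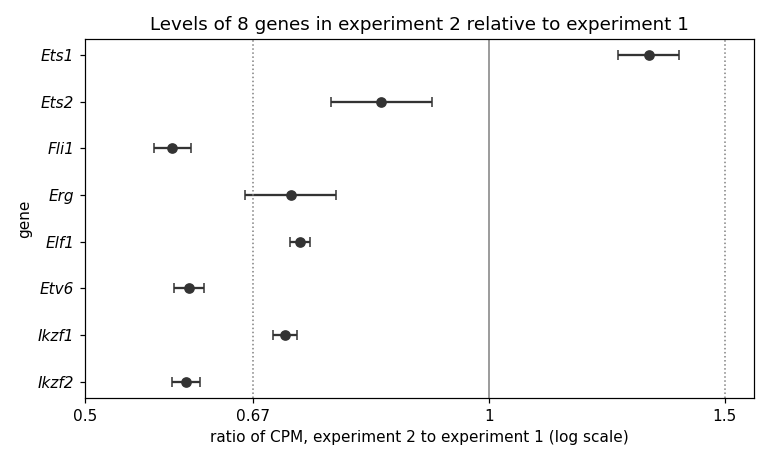
Ratio of the CPM of experiment 2 to that of experiment 1 (horizontal axis, log scale) for 8 genes, with exact 95% intervals for counting error as bars; dotted lines mark 1.5-fold in either direction. Fli1, Ikzf2 and Etv6 lie at 0.581 to 0.597, and Ets1 lies at 1.32.

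The genes whose order over the 16 hashtags was most like that of each member were found by Pearson's r of log2 CPM, with each experiment centred on its own mean, among 4964 or 4965 genes. The hashtags of an experiment share a library and a pool, and r is given as a description. Ets1 was most like Tcrg-C4 (r = 0.976), Sh3glb2 (0.960) and Trdc (0.954). Tcrg-C4 and Trdc are constant segments of the gamma and delta T-cell receptor loci. Elf1 was most like St8sia4 (0.969), Runx1 (0.955) and Hmox2 (0.953), and Etv6 most like Gm2a (0.963), Tmem176a (0.963) and Rgs19 (0.958). Ikzf1 was most like Kmt2c (0.955), a histone methyltransferase gene, and Ikzf2 like Mysm1 (0.941), a histone deubiquitinase gene. For Fli1, Erg and Ets2 the closest were Mier1 (0.936), Dusp2 (0.930) and Myl12b (0.958).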

How the data were processed

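Single-cell mRNA and antibody hashtag libraries (10x Chromium v3) of 2 experiments were used. Per the labels and the submitters' processing notes, the authors counted UMIs with Cell Ranger 3.0.0 on a mouse reference (mm10, GRCm38), and the deposited matrices hold raw counts per gene or tag and barcode. Barcodes entered the sums with 500 or more genes and a mitochondrial share of UMIs below 10%. A cell was given to a hashtag when its top tag had at least 50 counts and 3 times the next, which also removed cells with 2 strong tags; no doublet caller was run, so doublets within a hashtag stayed. UMIs were summed per hashtag and divided by the total (CPM). Levels from 3′ counts are not scaled by length and were not ranked between genes. Gates were set on cells thinned to 10000 UMIs, leaving out 573 and 589 shallower cells, and levels in gates use all UMIs of the gated cells. Intervals are exact at 95%.

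The labels tie no hashtag to a condition, so no condition was tested. Members, marker lists and gates were chosen with earlier results of these data known. Named genes were the members, list genes at the ends of the range or past the fold used, and the 3 genes most like each member, of which some are printed; the list genes at 0 UMIs were named after their values were seen. Promoters are RefSeq's (GRCm38.p6); 30934 of 31053 gene IDs were in the gene table. Python 3.11.15, scipy 1.17.1, R 4.3.3, Seurat 5.3.0 (HTODemux), edgeR 4.0.16 (TMM factors) and DESeq2 1.42.0 (size factors) were used, the last 3 for alternatives only. The script for hashtag ratios was tested on simulated data.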

Additional observations from a re-analysis of the deposited data

Results flagged for a closer look

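Ikzf3 in hashtag 4 of experiment 2 stood apart from the other hashtags of its experiment. Its level was 5.85 CPM and the next highest was 1.76 CPM, a gap of 0.712 of the whole range, which is past Dixon's 95% limit for 8 values. This was the only such value among 18 examined, and chance marks about 1 in 20. The 153 UMIs lay in 76 of 1170 cells with at most 6 in a cell, and 128 were left without the 5 cells that held most.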

How the results depend on the processing

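No paired analysis was possible because hashtag numbers name no shared animal, batch or condition and no groups were compared. Of the 144 member levels, 143 stayed within their main interval with a looser hashtag rule, 141 with TMM, 138 with DESeq2 size factors, 136 with HTODemux, 123 with stricter cell filters, 118 without the 5 top cells of the gene, 93 without other-lineage gate cells, 85 as a mean over cells and 77 when thinned to 5000 UMIs. The count of members with a ratio of at least 2 in experiment 1 was 2, and was 1 with the looser hashtag rule, TMM, DESeq2 size factors or no gate cells; leaving out 1 hashtag gave 1 to 2. In experiment 2 the count was 3, and 2 with HTODemux, the looser hashtag rule, thinning to 5000 UMIs or the 5 top cells left out; leaving out 1 hashtag gave 2 to 3. With a 50 CPM minimum the genes of at least that ratio numbered 159 in experiment 1 (937 in the main setting) and 252 in experiment 2 (1511). For Il2ra and Bcl11b against Kit-only cells of experiment 1, the members at least 1.5-fold higher numbered 1, 2 as a mean over cells, and 1 to 2 leaving out 1 hashtag (2 without hashtag 6). For experiment 2, which rests on 1 or 2 hashtags, the count for Kit and Il2ra against Kit-only was 1, 0 with an Il2ra minimum of 1 UMI, and 2 with HTODemux or a mean over cells. The count for Il2ra and Bcl11b against Kit and Il2ra was 2, and 1 with that minimum or with gates of at least 25 cells; the Ets2 fold there reversed from 2.31 to 0.783 in the latter. Il2ra and Bcl11b against Kit-only had 1 member lower, 0 with gate cells kept or gates of at least 25 cells, and 0 to 3 leaving out hashtag 8 or 3; its higher count reached 2 without hashtag 8. The Ets1 ratio of experiment 2 to 1 was 1.32 and reversed to 0.980 by medians over hashtags. The count of members at least 1.5-fold higher in experiment 2 was 0 to 1 leaving out 1 hashtag (Ets1, 1.51 without hashtag 7 of experiment 1). The cause of these changes was not tested. Depth limits Ikzf3, and Erg and Ets2 within gates. The gates of at least 25 cells, and levels without hashtag 4, were chosen after seeing the data.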
